A study of Mus musculus with 12 samples.

Results

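Kinesins are motor proteins that use ATP to move along microtubules or to shorten their ends. The genes described here are those whose annotated symbol is Kif or Kifc followed by a number, 42 genes of the 21579 named on the 2 arrays of the study. The adult array measured 39 of them, the array used for newborn ovaries measured 41, and 38 were on both. Genes entered the set by symbol alone, but the family, its role classes and the gene lists were picked with earlier results of these data known. Where several probe sets stood for a gene, the one used was selected on its measured level, as the brightest on average over all arrays of its table. A group with high values can therefore decide the choice. For Kif6 in adults and Kif1a at P3, the set not used was the brighter on average in wild-type ovaries. The genes were put in role classes from textbook knowledge: 13 mitotic motors, 15 transport motors, 6 motors of the cilium and 8 others.

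The study set mouse ovaries mutant for Foxl2, the forkhead transcription factor of granulosa cells, against wild-type ovaries and, in adults, testes. The adult set, all at 8 weeks, held 3 ovaries of the genotype Foxl2 flox/flox x CreEBD (mutant ovaries), 3 testes of wild-type males and 2 ovaries of wild-type females, each array from a single animal. The newborn set, at postnatal day 3 (P3), held 2 arrays of Foxl2 KO ovaries and 2 of wild-type ovaries, each from the pooled RNA of more than 10 females. Whole ovaries or part of a testis were used, so every value is a sum over all cell types of the organ. The labels say neither when the floxed gene was deleted in the adult mutants nor in which cells. For arrays, the number of samples in a group limits the precision.

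Foxl2 had RMA levels of 5.81, 6.04 and 5.73 in mutant ovaries, 5.22, 5.38 and 5.31 in testes and 8.75 and 8.81 in wild-type ovaries, on a log2 scale. At P3 its MAS5 signal, a linear intensity, was 186 and 154 in KO pools and 815 and 830 in wild-type pools. Markers of the labelled organs were present: the 10 spermatid markers averaged 10.52 to 10.65 in testes and 3.85 to 4.07 in all 5 ovaries. Of 9 granulosa cell markers 6, Foxl2 itself among them, were lower in mutant ovaries than in wild-type ovaries, and Amhr2 was higher by 1.92. Of 9 Sertoli cell markers 8 were higher. Over all genes 6.66% were lower and 9.55% higher. The wild-type ovaries differed from each other: 12 oocyte markers averaged 7.33 in wild-type ovary 1 and 5.70 in wild-type ovary 2, against 6.86 to 7.12 in mutant ovaries. Of the 11 mitotic kinesins on the adult array, 10 had their higher wild-type level in ovary 1, and the median gap to ovary 2 was 0.38. Differences that changed their call without one of these 2 ovaries are therefore also given without it.

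Mitotic kinesins build the spindle, move chromosomes and finish cell division, and cells make most of them as they approach mitosis. Many promoters of genes used at that stage hold a cell cycle homology region, TTTGAA or TTCGAA, often downstream of CCAAT boxes that bind the factor NF-Y. Transport kinesins carry vesicles, organelles and protein complexes and are used in cells that do not divide, and ciliary kinesins serve the axoneme or its assembly. RefSeq promoter windows, from 250 bases before to 50 after a transcription start on build GRCm38.p6, were available for 33 of the 42 genes. The letters TTTGAA or TTCGAA, on either strand, stood in 11 of 12 windows of mitotic kinesins, 1 of 12 windows of transport kinesins (10 genes), 2 of 6 of ciliary kinesins and 1 of 7 of the others. Over all 32851 windows of the same length the share was 19.2%. CCAAT on either strand stood in 8 of 12, 4 of 12, 3 of 6 and 2 of 7 windows of these classes, against 37.4% of all windows. Both motifs together stood in 8 mitotic windows and 0 transport windows, against 7.52% of all. The windows of Kifc1 and Kifc5b, genes that share a probe set on the adult array, each hold both motifs at like spacing and are counted separately. A match is a stretch of letters and no measured binding site.

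The stretches from 100 bases before to 50 after the start are shown for 6 of the 8 mitotic kinesins that were lower in mutant ovaries, chosen as those with such a match within the stretch, and for the 3 transport kinesins that were higher, Kif1a having 2 annotated starts. Capitals mark TTTGAA or TTCGAA and CCAAT on either strand (TTCAAA and ATTGG are their reverse complements), and each stretch is written 5′ to 3′ on the strand of the gene.
Kif11, chr19:37376282-37376431, plus strand: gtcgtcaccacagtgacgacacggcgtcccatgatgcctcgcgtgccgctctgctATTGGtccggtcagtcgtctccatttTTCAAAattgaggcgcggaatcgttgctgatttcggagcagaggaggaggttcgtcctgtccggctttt
Kif15, chr9:122950981-122951130, plus strand: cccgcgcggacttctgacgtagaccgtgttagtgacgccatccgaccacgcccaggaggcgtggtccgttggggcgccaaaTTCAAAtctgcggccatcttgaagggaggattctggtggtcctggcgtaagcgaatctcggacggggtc
Kif18b, chr11:102925075-102925224, minus strand: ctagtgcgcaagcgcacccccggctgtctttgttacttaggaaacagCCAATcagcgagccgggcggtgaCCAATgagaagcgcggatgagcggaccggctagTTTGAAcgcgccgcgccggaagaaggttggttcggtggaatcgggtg
Kif22, chr7:127042371-127042520, minus strand: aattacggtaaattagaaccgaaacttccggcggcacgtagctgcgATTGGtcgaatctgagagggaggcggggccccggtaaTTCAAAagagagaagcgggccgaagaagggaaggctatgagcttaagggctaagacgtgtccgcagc
Kif23, chr9:61946750-61946899, minus strand: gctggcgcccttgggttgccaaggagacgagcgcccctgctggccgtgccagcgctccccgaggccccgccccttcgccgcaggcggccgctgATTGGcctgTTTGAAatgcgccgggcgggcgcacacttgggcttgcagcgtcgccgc
Kif4, chrX:100625965-100626114, plus strand: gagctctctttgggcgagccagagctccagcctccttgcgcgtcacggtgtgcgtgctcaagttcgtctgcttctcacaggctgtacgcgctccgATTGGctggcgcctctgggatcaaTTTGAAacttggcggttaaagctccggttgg
Kif1a, chr1:93101825-93101974, minus strand: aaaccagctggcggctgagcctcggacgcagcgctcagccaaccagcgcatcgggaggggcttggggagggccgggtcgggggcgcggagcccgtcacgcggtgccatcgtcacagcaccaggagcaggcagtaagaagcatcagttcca
Kif1a, chr1:93082431-93082580, minus strand: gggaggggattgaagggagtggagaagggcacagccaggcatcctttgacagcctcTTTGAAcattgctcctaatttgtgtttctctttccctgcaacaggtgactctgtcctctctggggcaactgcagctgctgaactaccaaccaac
Kif3b, chr2:153291316-153291465, plus strand: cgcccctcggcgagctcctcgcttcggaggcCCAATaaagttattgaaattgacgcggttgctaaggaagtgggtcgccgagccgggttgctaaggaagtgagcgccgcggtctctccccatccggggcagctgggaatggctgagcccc
Kif5c, chr2:49619186-49619335, plus strand: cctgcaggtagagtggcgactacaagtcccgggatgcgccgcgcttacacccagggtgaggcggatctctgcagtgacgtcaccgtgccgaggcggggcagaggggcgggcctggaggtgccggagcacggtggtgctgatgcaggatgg

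In the 6 mitotic stretches the first base of the TTTGAA or TTCAAA lies close to the start: at base -19 relative to it in Kif11 and Kif15, at base -17 in Kif22, and at base 3 of the transcript in Kif23, base 4 in Kif18b and base 20 in Kif4. In 5 of the 6, Kif15 being the exception, a CCAAT or ATTGG precedes it. The closeness follows in part from the choice: the window of Kif2c, which also fell, has its single match at bases -103 to -98 and no CCAAT, and Kif20a is named only. Within these last 150 bases of the window, 9 of 12 mitotic windows held the letters, against 8.59% of all windows. Of the 4 transport stretches, that of the second Kif1a start holds TTTGAA, from base -44, and the other 3 hold neither TTTGAA nor TTCAAA. Of 14 windows of 12 spindle partner genes (proteins that act with mitotic motors, such as Prc1 and Racgap1), 10 held them, and of 12 windows of 9 genes for cargo adaptors of transport kinesins, 0 did.

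Mutant ovaries had less RNA of the mitotic kinesins than wild-type ovaries. Of the 11 measured, 8 fell, 0 rose and 3 did not pass, with a median log2 difference of -0.93 against -0.02 over all genes. Over all 19938 genes of the adult array 16.2% passed the same test (limma, p adjusted by Benjamini-Hochberg across the whole array, under 0.05), 9.55% higher and 6.66% lower. For 10 of the 11, Kif14 being the exception, every mutant ovary lay below both wild-type ovaries, a pattern seen in 20.6% of all genes. With a difference of at least 2-fold also required, 4 mitotic motors and 7 of 39 kinesins passed, against 5.61% of all genes. In a whole organ, fewer cells of a type and less RNA per cell cannot be told apart.

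Kif11, the tetrameric motor that pushes spindle poles apart, had levels of 4.97, 5.07 and 4.89 in mutant ovaries and of 6.65 and 6.73 in wild-type ovaries. The mutant ovaries lay close together and far below both wild-type ovaries, a difference of -1.71 ± 0.12 (SE of the limma fit, adjusted p = 7.67e-06), or 3.28-fold lower. Kif15, which acts beside Kif11 in holding the spindle bipolar, had levels of 4.27, 3.80 and 4.52 in mutant ovaries and 5.92 and 5.84 in wild-type ovaries. Its spread among mutants was wider, but no mutant value came near a wild-type one, and it fell by 1.68 ± 0.19 (limma adjusted p = 0.00021). Kif2c, a depolymerase that corrects faulty attachments at the centromere, had levels of 6.09, 5.77 and 5.40 in mutant ovaries and 7.34 and 6.84 in wild-type ovaries, a difference of -1.33 ± 0.20 (limma adjusted p = 0.00126). Kif18b, which limits the length of astral microtubules, had levels of 5.23, 5.06 and 5.30 in mutant ovaries and 6.32 and 6.13 in wild-type ovaries. This gave a difference of -1.02 ± 0.13 (limma adjusted p = 0.00048), with no overlap.

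The other mitotic motors that fell serve chromosome arms and the last steps of division. Kif20a, which brings the chromosomal passenger complex to the central spindle, had levels of 5.32, 5.18 and 5.53 in mutant ovaries and 6.54 and 6.11 in wild-type ovaries, and fell by 0.98 ± 0.16 (limma adjusted p = 0.00226). Kif22, a chromosome-bound motor that pushes arms away from the poles, fell by 0.93 ± 0.14 (limma adjusted p = 0.00154). Kif4, a chromosome-bound motor that also works with Prc1 in the central spindle, differed by -0.70 ± 0.20 (limma adjusted p = 0.0341), and Kif23, the motor of the centralspindlin complex, by -0.52 ± 0.13 (limma adjusted p = 0.0235). The Kif4 and Kif23 calls were the unstable ones. Without wild-type ovary 1 the differences were -0.43 (limma adjusted p = 0.185) and -0.33 (limma adjusted p = 0.114), and 6 of the 11 mitotic motors passed. Kif4 also missed the threshold when mutant ovary 1 or 3 or any single testis was left out, and Kif23 when mutant ovary 3 or any single testis was. Both calls were lost in the fit of the 2 ovary groups alone (limma adjusted p = 0.111 for Kif4 and 0.113 for Kif23). Of 14 alternatives, Kif4 passed in 6 and Kif23 in 7.

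The 3 mitotic motors that did not pass were Kif18a, which damps chromosome movement at the metaphase plate, and Kif20b and Kif14, both of cytokinesis. Kif18a had levels of 3.69, 4.07 and 3.88 in mutant ovaries and 4.82 and 4.16 in wild-type ovaries. Wild-type ovary 2 lay just above the highest mutant, and without it the difference of -0.61 (limma adjusted p = 0.0624) became -0.94 (limma adjusted p = 0.00551). Kif20b differed by -0.24 ± 0.13 and Kif14 by -0.31 ± 0.17. Kifc1 and Kifc5b, motors of the spindle pole, share 1 probe set on the adult array and were not tested. That probe set read 6.02, 5.79 and 5.80 in mutant ovaries, 6.11, 6.11 and 6.23 in testes and 6.40 and 5.97 in wild-type ovaries.

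**Figure D1:**
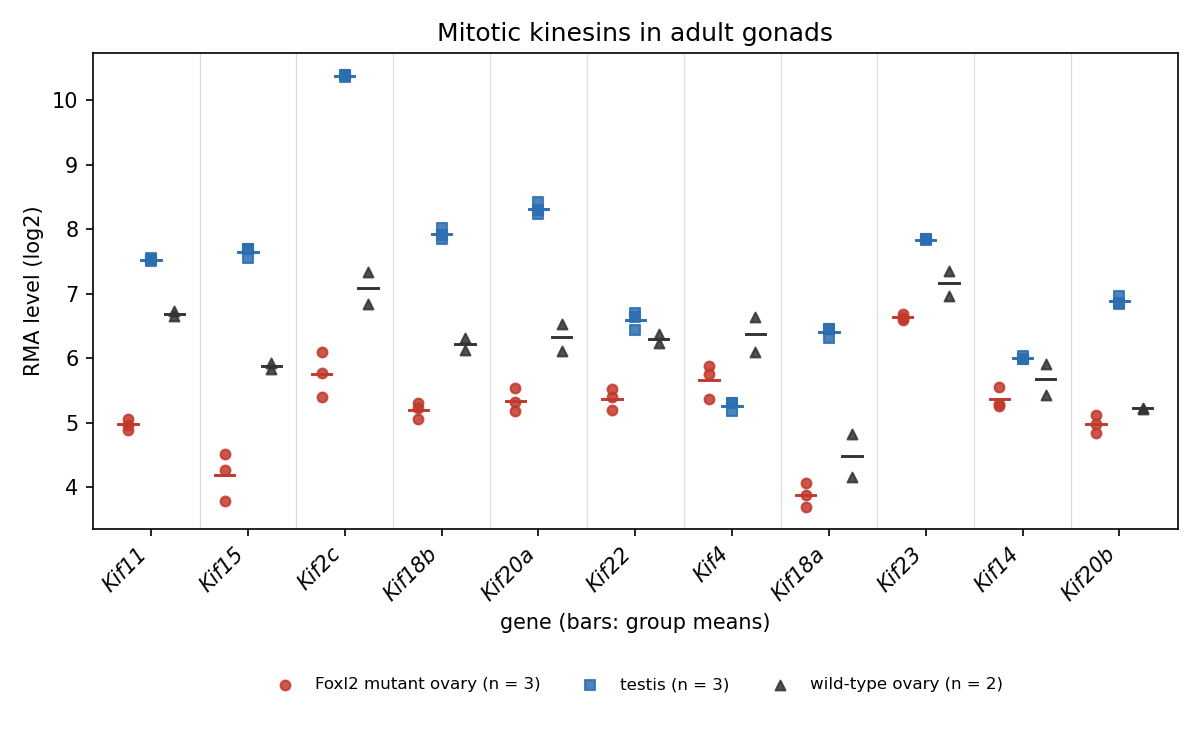
RMA level (log2) of the 11 mitotic kinesins on the adult array, 1 point per array, with Foxl2 mutant ovaries (n = 3), testes (n = 3) and wild-type ovaries (n = 2) from left to right within each gene and bars at group means; genes run from the most negative mutant minus wild-type difference. Mutant ovaries lie below both wild-type ovaries for every gene but Kif14, and testes lie above them for every gene but Kif4.

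Spindle partners and general proliferation genes moved with these motors. Of 15 spindle partners 11 fell in mutant ovaries, 0 rose, and the median was -0.72. Examples are Aurkb, the mitotic kinase of the chromosomal passenger complex (-1.71), Anln, a scaffold of the cleavage furrow (-1.40), and Prc1, which bundles microtubules of the central spindle (-1.18), with limma adjusted p from 3.47e-05 to 0.0015. Of 11 proliferation genes 10 fell, with a median of -0.89, led by Top2a, the topoisomerase of chromosome condensation (-2.42). The proliferation list averaged 6.15 to 6.40 in mutant ovaries and 7.43 and 7.71 in wild-type ovaries, and the mitotic kinesins averaged 5.18 to 5.24 in mutant ovaries and 5.98 and 6.28 in wild-type ovaries. Markers of other cell types also differed in mutant ovaries: 6 of 6 smooth muscle and 3 of 5 endothelial genes fell, and 2 of 5 leukocyte genes rose. The part of a change in cell composition in the lower mitotic kinesins was not tested.

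Among transport kinesins no gene fell in mutant ovaries. Of 15 measured, 3 rose, 0 fell and 12 did not pass, with a median of 0.01 and differences of the 12 from -0.34 (Kif1c) to 0.60 (Kif5b). The 3 were Kif1a, Kif5c and Kif3b, and for each of them all mutant ovaries lay above both wild-type ovaries, a pattern seen in 19.3% of all genes.

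Kif1a, known as the neuronal motor of synaptic and dense core vesicles, had levels of 7.20, 7.36 and 7.51 in mutant ovaries and 5.77 and 5.19 in wild-type ovaries. It rose by 1.88 ± 0.18 (limma adjusted p = 6.56e-05), or 3.68-fold, the largest rise of the class. Kif5c, a heavy chain of conventional kinesin best known from neurons, had levels of 6.02, 5.92 and 6.11 in mutant ovaries and 4.87 and 4.99 in wild-type ovaries, a difference of 1.09 ± 0.15 (limma adjusted p = 0.000714). Kif3b, one of the 2 motor chains of the heterotrimeric kinesin that carries cargo into cilia, had levels of 8.03, 8.07 and 7.98 in mutant ovaries and 7.18 and 7.57 in wild-type ovaries. It rose by 0.65 ± 0.13 (limma adjusted p = 0.00598), and its partner chain Kif3a differed by -0.18 ± 0.15, with overlapping groups. Without the testes in the fit the Kif3b call was lost (limma adjusted p = 0.0564).

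Several transport motors depended on which wild-type ovary they were set against. Kif5b, the conventional heavy chain found in most tissues, had levels of 9.15, 8.68 and 8.99 in mutant ovaries and 8.00 and 8.69 in wild-type ovaries. Its difference of 0.60 ± 0.20 (limma adjusted p = 0.0718) was 0.94 without wild-type ovary 2 (limma adjusted p = 0.00393). Kif17, a motor of dendritic vesicles that in mouse spermatids also carries a transcriptional coactivator, had levels of 4.63, 4.63 and 4.49 in mutant ovaries and 5.49 and 4.09 in wild-type ovaries. The mutants lay between the wild-type ovaries, so the sign turned: the difference was 0.49 without wild-type ovary 1 (limma adjusted p = 0.0457) and -0.90 without wild-type ovary 2 (limma adjusted p = 0.00202). Counting Kif17 and Kif5b, 5 transport motors passed without wild-type ovary 2.

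The part of neurons in the rise of Kif1a and Kif5c was not tested. Of 7 neuronal genes 1 rose, Tubb3, a neuronal tubulin (2.71, limma adjusted p = 4.42e-05), and the other 6 did not pass, with values from -0.44 to 0.02. The list averaged 4.48 to 4.57 in mutant ovaries, 4.34 to 4.38 in testes and 4.25 and 4.35 in wild-type ovaries, below the array medians of 4.83 to 4.94. These averages include Tubb3, at 8.68, 8.09 and 9.12 in mutant ovaries. Elavl4, Nefl, Snap25 and Stmn2 lay at 4.15 or below on every array, where a change may not show. Among 10 cargo adaptors 1 rose and 1 fell. Trak1, which links conventional kinesin to mitochondria, rose by 1.43 ± 0.13 (limma adjusted p = 5.21e-05), and Kifap3, the third subunit of the heterotrimeric motor of Kif3a and Kif3b, fell by 0.49 ± 0.12 (limma adjusted p = 0.0172). Klc1, a light chain of conventional kinesin, differed by -0.52 (limma adjusted p = 0.0536).

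**Figure D2:**
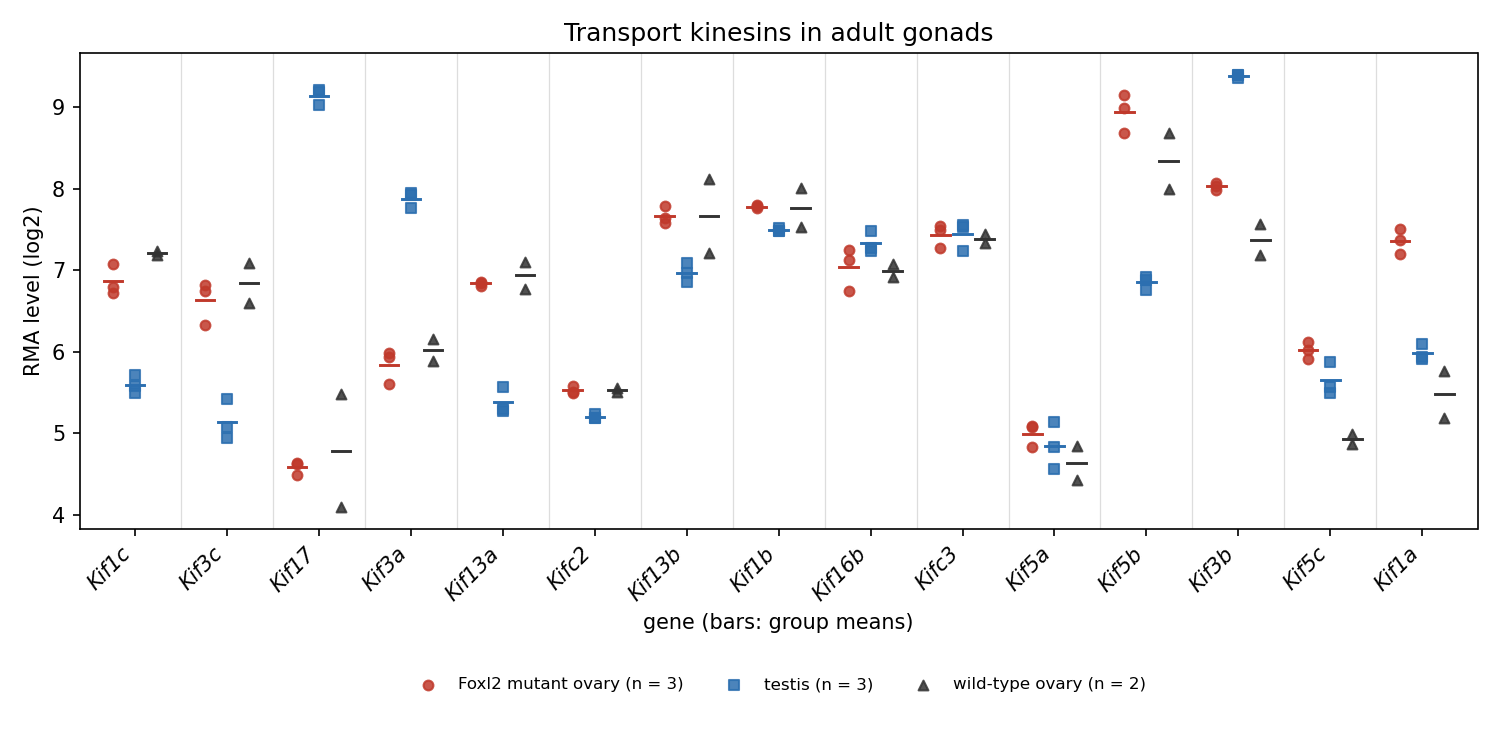
RMA level (log2) of the 15 transport kinesins on the adult array, 1 point per array, with Foxl2 mutant ovaries (n = 3), testes (n = 3) and wild-type ovaries (n = 2) from left to right within each gene and bars at group means. Kif1a, Kif5c and Kif3b are higher in all mutant ovaries than in both wild-type ovaries, and for Kif17 the wild-type ovaries, at 5.49 and 4.09, lie on either side of the mutants.

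Outside these classes the largest kinesin difference in mutant ovaries was that of Kif21a, a motor that restrains microtubule growth at the cell cortex and is mutated in a human disorder of eye movement. It had levels of 7.87, 7.76 and 8.49 in mutant ovaries and 6.05 and 5.72 in wild-type ovaries. All mutants were higher, by 2.15 ± 0.21 (limma adjusted p = 7.02e-05) or 4.45-fold, while its relative Kif21b differed by 0.35 ± 0.16 (limma adjusted p = 0.167). Kif6, a motor of motile cilia, had levels of 5.73, 5.41 and 5.45 in mutant ovaries and 4.80 and 4.26 in wild-type ovaries, a rise of 1.00 ± 0.18 (limma adjusted p = 0.00344) and the single call among 6 ciliary motors. With the mean over its probe sets in place of the brightest one the Kif6 difference was 0.58 (limma adjusted p = 0.0407). The Kif6 set not used, which was brighter in both wild-type ovaries than the one used, differed by 0.17. Kif24, a depolymerase of the centriole that holds back ciliation, differed by -0.46 (limma adjusted p = 0.16), by -0.84 without wild-type ovary 2 (limma adjusted p = 0.00469) and by -0.08 without wild-type ovary 1. Kif27, a relative of Kif7 linked to motile cilia, differed by -0.41 (limma adjusted p = 0.0557), by -0.52 without wild-type ovary 2 (limma adjusted p = 0.0421) and by -0.31 without wild-type ovary 1. Counting both, 3 ciliary motors passed without wild-type ovary 2. In all ovaries Kif27 lay below the array medians of 4.83 to 4.94. Of 8 genes of multiciliated cells 0 passed in limma (1 at an unadjusted p under 0.05, against 28.9% of all genes), with a median of 0.05.

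Kif26a and Kif26b, atypical kinesins known in mouse from gut neurons and kidney development, were both lower in mutant ovaries. Kif26a had levels of 5.82, 6.01 and 5.96 in mutant ovaries and 6.39 and 6.64 in wild-type ovaries, and Kif26b of 4.40, 4.67 and 4.94 in mutant ovaries and 5.30 and 5.27 in wild-type ovaries. Neither overlapped, with differences of -0.58 ± 0.15 for Kif26a (limma adjusted p = 0.0274) and -0.61 ± 0.17 for Kif26b (limma adjusted p = 0.0327). Both calls were fragile: of 14 alternatives, Kif26a passed in 9 and Kif26b in 6. Kif26a was lost without mutant ovary 1 or 3, testis 2 or wild-type ovary 2 (-0.46), and Kif26b without mutant ovary 1 or 2, testis 1 or 2, or either wild-type ovary (-0.60 and -0.63).

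In testes against wild-type ovaries, kinesins of all classes differed. Of the 39 measured 21 rose, 9 fell and 9 did not pass, with a median of 0.68 against -0.15 over all genes. These 2 organs differ in most genes, and 60.3% of all genes passed, 24.4% higher and 35.9% lower, so a count near those shares is no result about kinesins. This comparison uses the same 2 wild-type ovaries as that of mutant ovaries. All 10 spermatid and all 10 meiotic markers were higher in testes, with medians of 6.91 and 4.37. The part of germ cells in the kinesin differences was not tested.

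Of 11 mitotic motors 8 rose in testes, 1 fell and 2 did not pass, with a median of 1.67. Kif2c had levels of 10.39, 10.36 and 10.39 in testes and 7.34 and 6.84 in wild-type ovaries, a difference of 3.29 ± 0.20 (limma adjusted p = 1.56e-07). Kif20a had levels of 8.23, 8.41 and 8.29 in testes and 6.54 and 6.11 in wild-type ovaries, and rose by 1.99 ± 0.16 (limma adjusted p = 1.52e-06). For both genes the testes lay close together and far above the ovaries. Kif18a had levels of 6.31, 6.45 and 6.46 in testes, against 4.82 and 4.16 in wild-type ovaries, and rose by 1.92 ± 0.20 (limma adjusted p = 9.33e-06). Kif15 had levels of 7.69, 7.55 and 7.69 in testes and 5.92 and 5.84 in wild-type ovaries, and rose by 1.76 ± 0.19 (limma adjusted p = 1.49e-05).

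Kif4 went the other way. It had levels of 5.18, 5.31 and 5.31 in testes and 6.65 and 6.10 in wild-type ovaries, a difference of -1.11 ± 0.20 (limma adjusted p = 0.000552), and it passed in all 14 alternatives. Kif22 differed by 0.29 ± 0.14 and Kif14 by 0.33 ± 0.17, neither past the threshold, and without wild-type ovary 1 Kif14 passed at 0.57 (limma adjusted p = 0.0142). Spindle partners rose in 12 of 15 cases and fell in 0 (median 1.11), led by Aurka, the kinase of spindle poles (2.55), and Cenpe, a kinesin-like motor of the kinetochore that its symbol kept out of the set (2.45). Proliferation genes were split, with 4 higher and 6 lower of 11 and a median of -0.47. The largest differences were those of Ccnb2, a B-type cyclin (2.30), and Bub1, a kinase of the spindle checkpoint (2.26), both higher, and of Ccna2, cyclin A (-1.81), which was lower.

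Ciliary kinesins rose in testes in 5 of 6 cases. Kif27 had levels of 9.41, 9.50 and 9.43 in testes and 3.90 and 3.69 in wild-type ovaries, a rise of 5.66 ± 0.13 (limma adjusted p = 1.39e-10). Kif9, of the central apparatus of motile cilia and flagella, had levels of 10.04, 10.11 and 10.18 in testes and 4.61 and 4.44 in wild-type ovaries, a rise of 5.59 ± 0.14 (limma adjusted p = 2.59e-10). Kif27 lay below the array medians of 4.83 to 4.94 in all 5 ovaries, and Kif9 in all but mutant ovary 2, where it read 5.01. Kif24 rose by 2.04 ± 0.20, Kif6 by 1.95 ± 0.18 and Kif19a, a depolymerase of the ciliary tip, by 1.28 ± 0.14 (limma adjusted p from 3.56e-06 to 1.23e-05). Kif7, the Hedgehog regulator of primary cilia, had levels of 5.89, 5.90 and 5.78 in testes and 6.08 and 5.78 in wild-type ovaries, which overlapped (-0.07 ± 0.21). Of 8 genes of multiciliated cells 5 were higher and 1 lower in testes, with Rsph1, of the radial spoke, higher by 5.84 and Foxj1, the regulator of motile cilia, by 0.57.

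The kinesin with the largest difference of all was Kif2b, a depolymerase related to Kif2c. It had levels of 10.84, 10.81 and 10.78 in testes, 3.65, 3.61 and 3.62 in mutant ovaries and 3.77 and 3.63 in wild-type ovaries. The testes were 7.11 ± 0.12 above wild-type ovaries (limma adjusted p = 7.23e-11). Kif2a, the third depolymerase of this family, had levels of 9.70, 9.71 and 9.71 in testes and 7.11 and 7.17 in wild-type ovaries (a difference of 2.56 ± 0.10, limma adjusted p = 5.33e-09). Kif21b rose by 2.13 ± 0.16 (limma adjusted p = 6.16e-07), while Kif21a, the gene that was higher in mutant ovaries, had 5.86, 5.99 and 5.87 in testes and did not differ from wild-type ovaries beyond its error (0.02 ± 0.21). Kif26a and Kif26b fell by 1.06 ± 0.15 and 0.77 ± 0.17 (limma adjusted p = 0.000137 and 0.00244). Kif12 passed in no adult comparison, with levels from 3.97 to 4.32 over all 8 arrays.

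**Figure D3:**
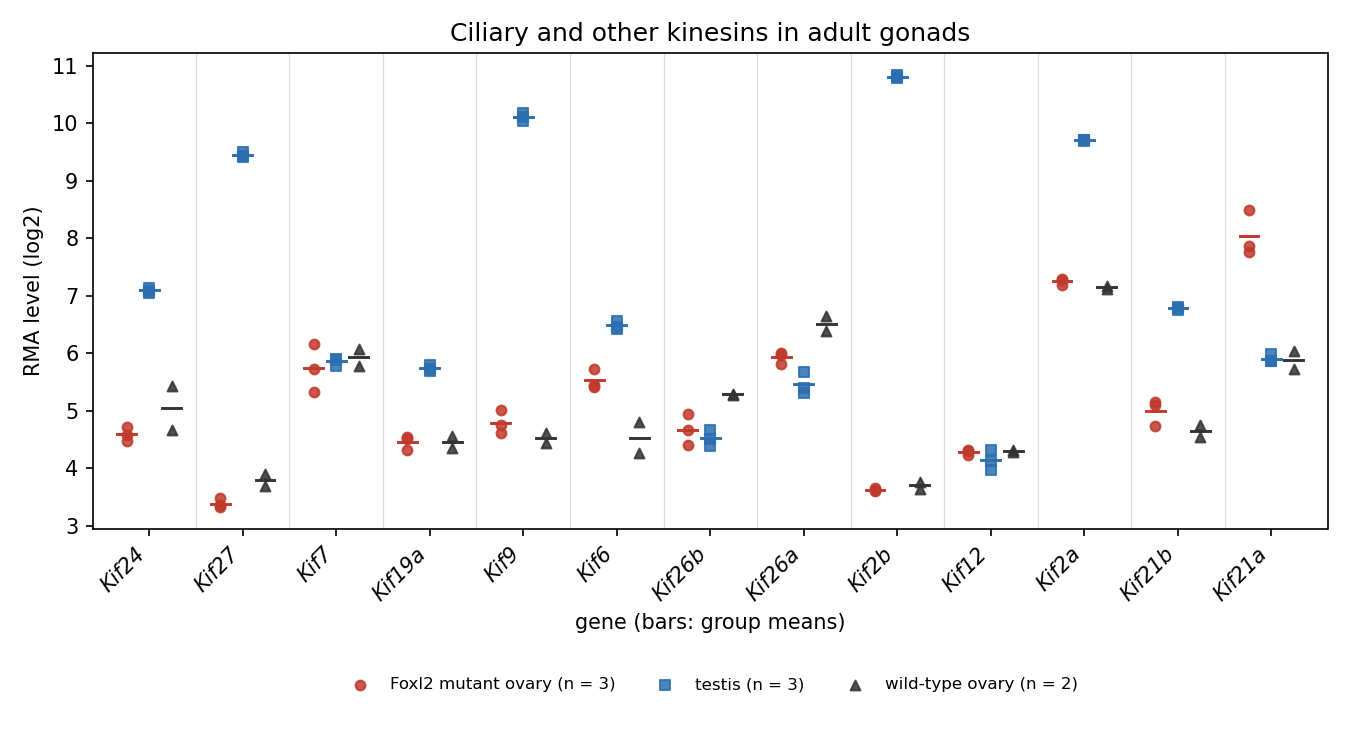
RMA level (log2) of the 6 ciliary kinesins (Kif24 to Kif6) and 7 other kinesins (Kif26b to Kif21a) on the adult array, 1 point per array, with Foxl2 mutant ovaries (n = 3), testes (n = 3) and wild-type ovaries (n = 2) from left to right within each gene and bars at group means. Kif27, Kif9 and Kif2b are between 9.41 and 10.84 in testes and at 5.01 or below in all ovaries, and Kif21a is highest in mutant ovaries.

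Transport kinesins were split in testes, with 5 higher, 6 lower and 4 not past the threshold of 15, and a median of 0.06. At 2-fold or more 7 passed, against 34.7% of all genes. Kif17 had levels of 9.19, 9.03 and 9.20 in testes and 5.49 and 4.09 in wild-type ovaries, a rise of 4.35 ± 0.31 (limma adjusted p = 5.25e-07). The motor chains Kif3b (9.40, 9.40 and 9.35 in testes, against 7.18 and 7.57 in wild-type ovaries) and Kif3a (7.92, 7.94 and 7.77 in testes, against 6.16 and 5.88 in wild-type ovaries) rose by 2.01 ± 0.13 and 1.86 ± 0.15 (limma adjusted p = 2.06e-07 and 1.82e-06). Their shared subunit Kifap3 rose by 2.79 ± 0.12 (limma adjusted p = 8.1e-09), so that all 3 chains of this motor were higher in every testis than in both wild-type ovaries, as were 28.5% of all genes. Kif3c, the alternative partner of Kif3a in neurons, had levels of 5.42, 4.94 and 5.08 in testes and 7.08 and 6.60 in wild-type ovaries and fell by 1.70 ± 0.21 (limma adjusted p = 4.18e-05).

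The heavy chains of conventional kinesin were split. Kif5b had levels of 6.87, 6.76 and 6.92 in testes and 8.00 and 8.69 in wild-type ovaries, and fell by 1.49 ± 0.20 (limma adjusted p = 7.39e-05), whereas Kif5c rose by 0.72 ± 0.15 (limma adjusted p = 0.00173). Its light chain Klc1 fell by 1.95 and its mitochondrial adaptor Trak2 by 2.37, and the scaffold Mapk8ip2 rose by 3.92 (limma adjusted p from 7.77e-10 to 1.77e-06). The vesicle motors Kif1c and Kif13a fell by 1.61 ± 0.14 and 1.56 ± 0.15 (limma adjusted p = 2.97e-06 and 5.06e-06). Kif1c had levels of 5.49, 5.57 and 5.71 in testes and 7.23 and 7.18 in wild-type ovaries, and Kif13a of 5.30, 5.56 and 5.27 in testes and 6.77 and 7.10 in wild-type ovaries. Kif1b, Kif16b, Kif5a and Kifc3, motors of organelles, endosomes, neuronal cargo and cell junctions, did not pass (-0.28 to 0.33), although without wild-type ovary 1 Kif1b did (-0.52, limma adjusted p = 0.00414). Calls for Kif13b, Kif1a and Kifc2 were not stable. Without wild-type ovary 2 the Kif13b difference was -0.24 (limma adjusted p = 0.2) and that of Kif1a 0.21 (limma adjusted p = 0.305), and the calls were also lost without testis 1 or 3 (Kif13b) or without any single testis (Kif1a). Kifc2 (-0.32) passed in 6 of 14 alternatives and was lost whichever testis or wild-type ovary was left out.

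**Figure D4:**
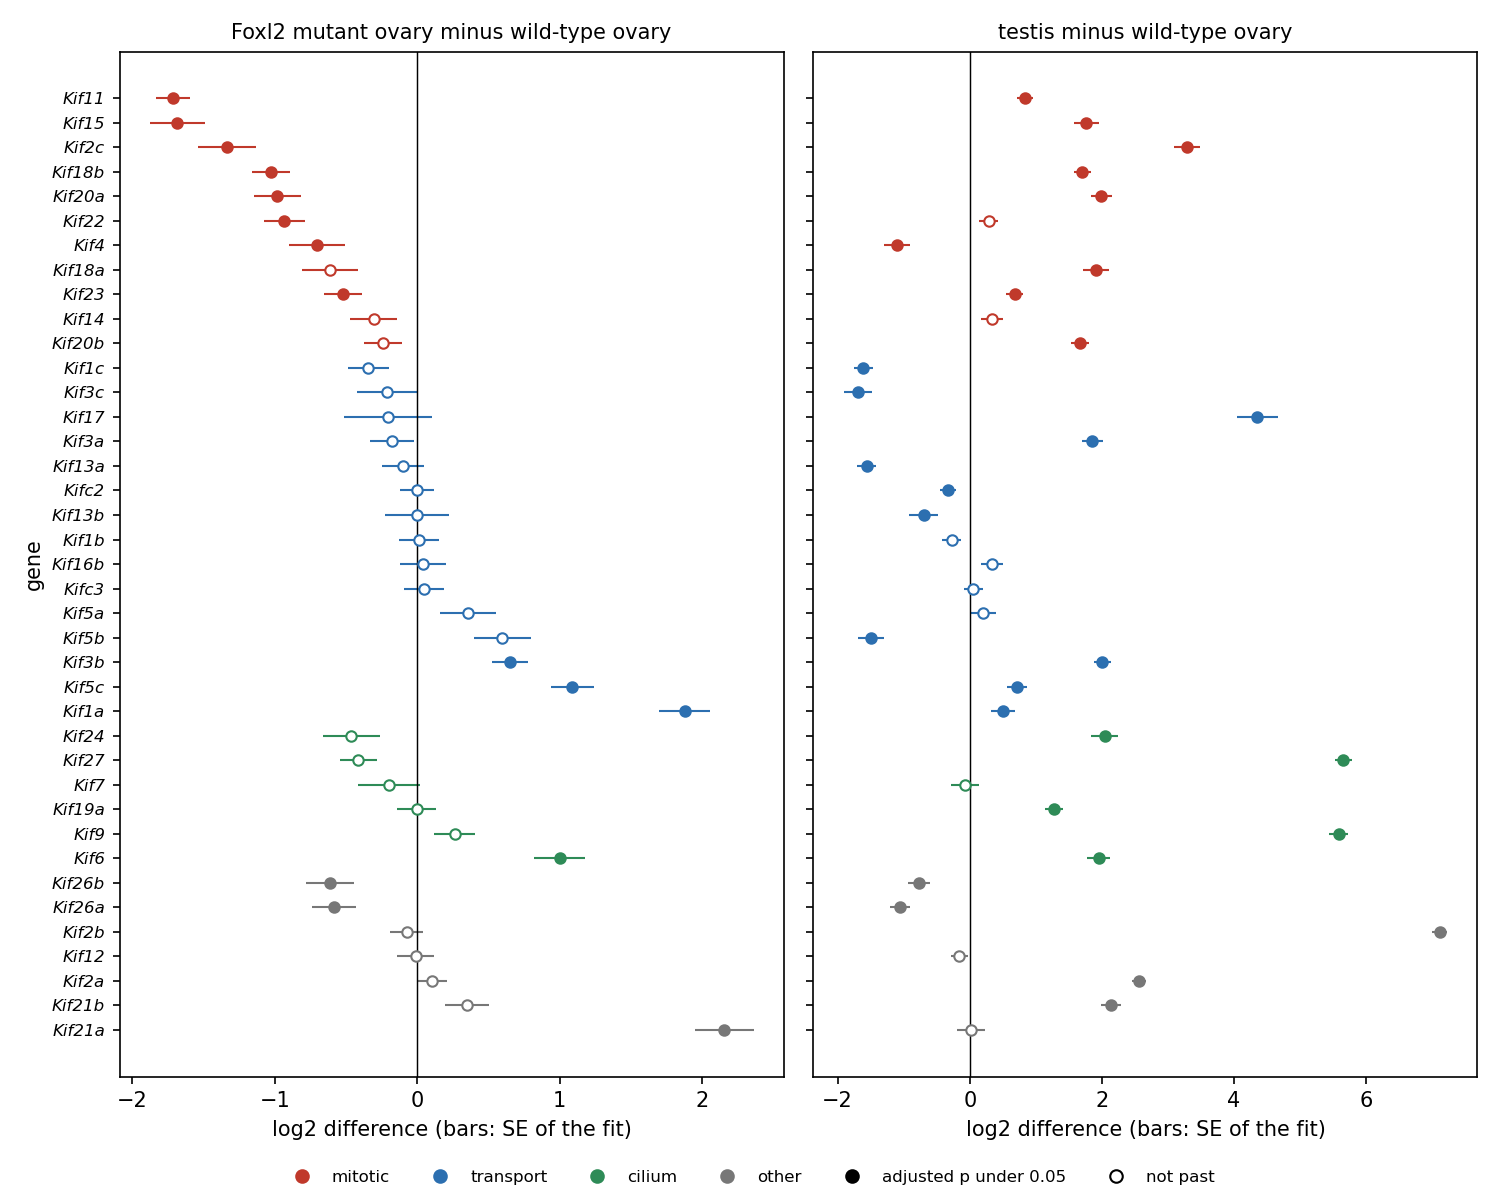
Log2 difference of each of the 39 kinesins on the adult array, with bars of 1 SE of the limma fit, for Foxl2 mutant ovary minus wild-type ovary (left) and testis minus wild-type ovary (right, wider axis); colours give the role class and filled points have an adjusted p under 0.05. Mitotic motors lie between -1.71 and -0.24 on the left and, but for Kif4, above 0 on the right; both panels use the same 2 wild-type ovaries.

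Set directly against testes, mutant ovaries were lower in 21 of 39 kinesins and higher in 10, with a median of -0.95. Over all genes 61.8% passed in this comparison, 37.5% higher and 24.3% lower, and the median was 0.14. Mitotic motors were lower in 10 of 11 cases, with a median of -2.53. Kif2c was 4.62 ± 0.18 lower in mutant ovaries (limma adjusted p = 3.39e-09), Kif15 3.45 ± 0.17, Kif20a 2.97 ± 0.15 and Kif18b 2.73 ± 0.12 lower. Kif4 alone was not lower, at 0.40 ± 0.17 (limma adjusted p = 0.0682), and passed as higher without mutant ovary 3 (0.55, limma adjusted p = 0.0217) or without either wild-type ovary. For 9 of the 11 mitotic motors, Kif4 and Kif14 being the exceptions, wild-type ovaries lay above all mutant ovaries and below all testes, an order seen in 5.11% of all genes. The order adds nothing independent to the comparisons above, since it uses the same arrays. Proliferation genes were less uniform between mutant ovaries and testes, with 6 lower and 3 higher of 11, and all 15 spindle partners were lower in mutant ovaries.

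Transport motors were higher in mutant ovaries than in testes in 8 of 15 cases and lower in 3. The higher ones were led by Kif5b (2.09 ± 0.18, limma adjusted p = 1.8e-06), Kif3c (1.49 ± 0.19), Kif13a (1.46 ± 0.13) and Kif1a (1.38 ± 0.16), and the lower ones were Kif17 (-4.56 ± 0.28), Kif3a (-2.03 ± 0.14) and Kif3b (-1.35 ± 0.11). Kif5c, at 0.37 ± 0.13, passed in 9 of 14 alternatives and was lost without mutant ovary 1 or 3 or testis 1 or 2, and Kifc2, at 0.32 ± 0.11, passed in 10 and was lost without mutant ovary 1 or testis 2 or 3. Ciliary motors were lower in 5 of 6 cases, with Kif27 at -6.07 ± 0.12 and Kif9 at -5.32 ± 0.13, and Kif7 did not pass. Kif21a was 2.13 ± 0.18 higher in mutant ovaries (limma adjusted p = 1.96e-06). Kif1b, at 0.29, did not pass (limma adjusted p = 0.0741) and did without either wild-type ovary (limma adjusted p = 0.0137 and 0.0142). Kif26a was 0.47 ± 0.14 higher, a call that was lost without testis 1 (limma adjusted p = 0.0533), and Kif2b, Kif2a and Kif21b were lower (-7.19, -2.45 and -1.78).

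At P3 no kinesin passed in the KO ovaries. Of 41 measured, 0 had a limma adjusted p under 0.05, against 0.324% of all 18194 genes, and 4 had an unadjusted p under 0.05, against 9.53% of all. Differences here are on the log2(signal + 16) scale, which understates those of dim genes. Kif28, which only this array measured, read 1.4 and 6.8 in KO pools and 5.3 and 4.4 in wild-type pools, at the bottom of the scale. The 13 mitotic motors had a median of 0.13, between -0.28 and 0.99, the 15 transport motors of 0.02, the 5 ciliary motors of -0.05 and the 8 others of -0.07, against -0.01 over all genes. With 2 pools in a group, a miss of the threshold does not show that levels were equal.

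Of the mitotic motors that fell in adult mutants, none passed at P3. Kif11 had signals of 217 and 246 in KO pools and 231 and 349 in wild-type pools (-0.28 ± 0.29, limma adjusted p = 0.853). Kif2c had 1990 and 2059 in KO pools and 2123 and 2376 in wild-type pools (-0.15 ± 0.12, limma adjusted p = 0.807), and Kif22 had 11713 and 11468 in KO pools and 10789 and 12020 in wild-type pools (0.03 ± 0.12, limma adjusted p = 0.975). Kif11 and Kif22 overlapped between the groups, and Kif2c was slightly lower in both KO pools. The other Kif22 probe sets were far dimmer, at 556.5 to 782.5 and 2023.5 to 2284.2, and differed by -0.16 and -0.01. The largest P3 difference among these motors was that of Kif15, with 84.2 and 91.0 in KO pools and 55.7 and 29.7 in wild-type pools (0.86 ± 0.39, limma adjusted p = 0.589). Its signals were higher in both KO pools, the opposite direction to adult mutants, and all lay below the array medians. Kifc1 and Kifc5b, which share a probe set on the adult array and have a set each here, differed by 0.13 ± 0.21 and 0.38 ± 0.33, with overlapping groups. Whether each of these sets reads its own gene alone was not tested. Proliferation genes had a median of 0.04 and spindle partners of -0.01, with 0 of 11 and 0 of 15 past the limma threshold (0 and 1 at an unadjusted p under 0.05).

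The 4 largest P3 differences among kinesins whose groups did not overlap, a pattern seen in 19.3% of all genes as higher and 19.7% as lower, were those of Kif1a, Kif26b, Kif17 and Kif14, and none passed. Kif1a had signals of 68.7 and 105.7 in KO pools and 8.1 and 27.1 in wild-type pools (1.66 ± 0.45, limma adjusted p = 0.263). All 4 signals lay below the array medians of 116.6 to 126.8, and the second Kif1a probe set, with 72.8 and 36.1 in KO pools and 64.7 and 21.7 in wild-type pools, overlapped. Kif26b had signals of 212 and 234 in KO pools and 585 and 517 in wild-type pools (-1.24 ± 0.21, limma adjusted p = 0.0967). It passed when dim genes were left out (limma adjusted p = 0.0305).

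Kif17 had signals of 178 and 174 in KO pools and 417 and 402 in wild-type pools (-1.15 ± 0.23, limma adjusted p = 0.132), and its other 2 probe sets were also lower in both KO pools. With dim genes left out it passed (limma adjusted p = 0.0467). Kif14 had signals of 62.5 and 49.6 in KO pools and 47.3 and 4.5 in wild-type pools, all below the array medians (0.99 ± 0.58, limma adjusted p = 0.698). The fourth kinesin with an unadjusted p under 0.05 was Kif9, with 524 and 428 in KO pools and 599 and 785 in wild-type pools (-0.52 ± 0.21, limma adjusted p = 0.52). Oocyte markers were lower in KO pools in 2 of 12 cases (7 at an unadjusted p under 0.05) with a median of -0.52. Granulosa markers were lower in 3 of 9 cases, Foxl2 itself among them (6 at an unadjusted p under 0.05), with a median of -1.40. Of 7 neuronal markers 0 passed in limma (2 at an unadjusted p under 0.05, median -0.46). The part of these cell types in the lower Kif17 and Kif26b signals was not tested. Of the 26 kinesins with several P3 probe sets, all sets of a gene had the same sign in 10.

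The adult and P3 differences can be set side by side for 38 kinesins, with different arrays, labelling and pooling. Groups did not overlap in 39.9% of all adult and 38.9% of all P3 genes, and the share with the same direction in both was not counted. Among the kinesins they did not overlap and had the same direction for Kif1a and Kif5c, higher in Foxl2 mutant and KO ovaries, and for Kif2c, Kif26a and Kif26b, lower in both. At P3 Kif26a had signals of 30.7 and 27.2 in KO pools and 41.6 and 39.6 in wild-type pools (-0.33 ± 0.35, limma adjusted p = 0.861). All lay below the array medians of 116.6 to 126.8. Kif5c had signals of 617 and 681 in KO pools and 395 and 572 in wild-type pools (0.44 ± 0.23, limma adjusted p = 0.65). Its other 3 P3 probe sets differed by -0.19, -0.50 and -0.09, with signals from 0.7 to 61.5, all below the array medians. Groups overlapped for the sets at -0.19 and -0.09. With the mean over probe sets the P3 sign turned for Kif5c (-0.09) and Kif2c (0.05). For Kif2c a single set was positive (0.53), with 114.9 and 115.0 in KO pools and 125.9 and 42.3 in wild-type pools, which overlapped. Its other sets differed by -0.15, -0.04 and -0.13. Kif21a, at 630 and 676 in KO pools and 704 and 530 in wild-type pools, overlapped at P3 (0.09 ± 0.20). No test was made across the 2 tables, since they were made and normalized separately.

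**Figure D5:**
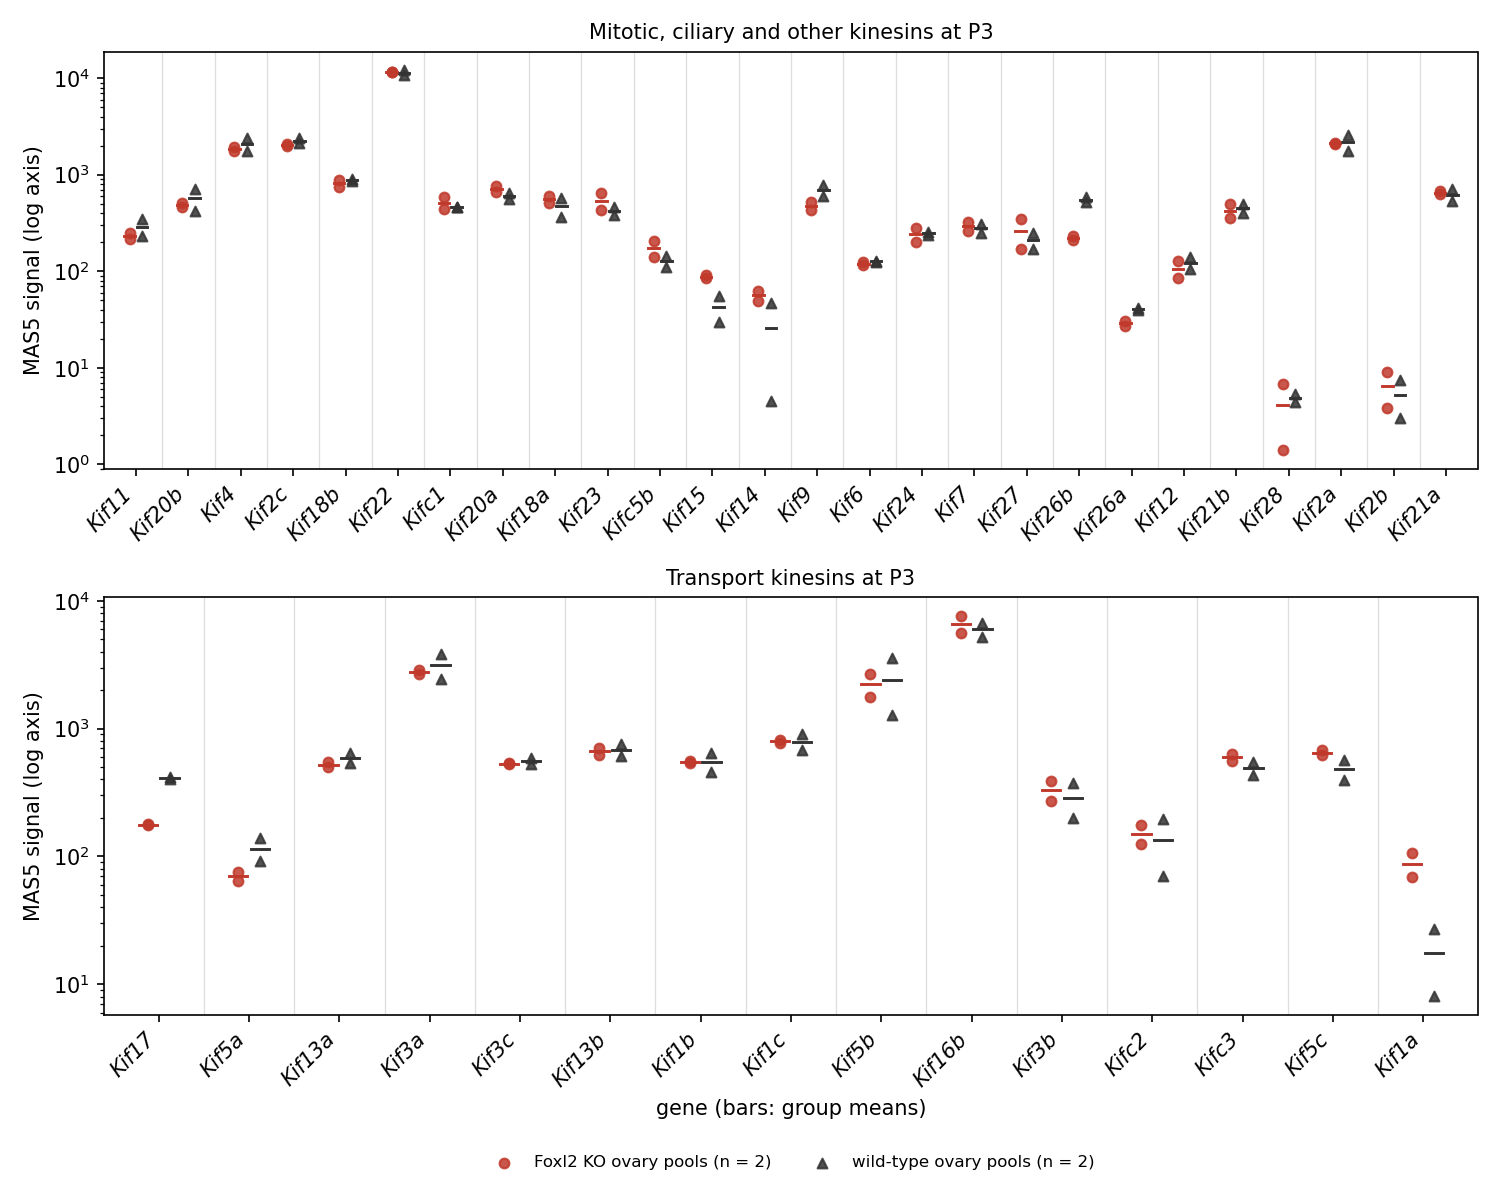
MAS5 signal (log axis) of the 41 kinesins on the P3 array, 1 point per pool, with Foxl2 KO ovary pools (n = 2) left of wild-type ovary pools (n = 2) within each gene and bars at group means; mitotic, ciliary and other kinesins are in the upper panel and transport kinesins in the lower one. Most pairs of groups overlap, and Kif26b, Kif17 and Kif1a stand apart without passing the test.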

How the data were processed

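RNA was measured on arrays in 8 adult gonads and 4 pools of P3 ovaries. Adult arrays were labelled from 300 ng of RNA of perfused animals and P3 arrays from 1 µg without perfusion, per the labels' protocols. For the adult set the authors deposited log2 values from RMA, run in Affymetrix Expression Console according to the submitters' processing notes. For P3 they deposited MAS5 signals (linear intensity), also per those notes, although the labels' protocols describe CodeLink labelling; this conflict was not resolved. No source used here gives versions of these programs. Leaving out the top and bottom 2% of values, every P3 array averaged 500, so arrays had been scaled alike. Replicates correlated at r of 0.978 to 0.992 across probe sets on the adult array and 0.957 to 0.964 at P3.

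Probe sets with a single gene in the platform annotation were kept (21789 of 35557 adult, 34958 of 45101 P3), with symbols updated through the RefSeq gene table of GRCm38.p6. For each gene the probe set with the highest mean over the table's arrays was used. Fits were made over all genes in R 4.3.3 with limma 3.58.1 (lmFit, eBayes with trend, two-sided, Benjamini-Hochberg over all genes of the table), with 1 mean per group over the 8 adult arrays together and over the 4 P3 arrays as log2(signal + 16), and were tested on simulated data. On such data the P3 design made no call, so a miss of the threshold at P3 says little. A gene passed at an adjusted p under 0.05. Promoters were searched in Python 3.11.15 on both strands of 32851 RefSeq windows. Replicate numbers do not pair the samples: deviations of same-numbered arrays correlated at 0 to 0.08.

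The kinesins, their role classes and the gene lists were chosen with earlier results of these data known. Any kinesin could be named. Full values were given for up to 4 of the largest rises and falls per class and comparison among those that passed, and at P3 for the 4 largest differences without overlap. Protein sequences were not used here, so a planned search for the ATP-binding loop was not made. Alternatives were the mean of probe sets, a filter on dim genes (RMA of 5 or a signal of 100 in at least 2 arrays), no trend, the replicate block, a 2-fold minimum, quantile normalization, the 2 groups alone, pseudocounts of 1 and 64, Kif2a and Kif2b counted as mitotic, and leaving out each array.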

Additional observations from a re-analysis of the deposited data

Results flagged for a closer look

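For 3 of the 38 kinesins on both arrays the adult mutant ovaries all lay on one side of wild-type ovaries and the P3 KO pools all on the other. The differences between ages were not tested, and groups did not overlap in 39.9% of all adult genes and 38.9% of all P3 genes. The share of all genes on opposite sides at both ages was not counted, so the count of 3 is no result about kinesins. Kif15 differed by -1.68 in adult mutant ovaries and by 0.86 in P3 KO pools, where its signals were 84.2 and 91.0 in KO pools and 55.7 and 29.7 in wild-type pools, all below the array medians. Kif20a differed by -0.98 in adult mutant ovaries and by 0.23 in P3 KO pools, with 759 and 667 in KO pools and 561 and 648 in wild-type pools. Kif6 differed by 1.00 in adult mutant ovaries and by -0.08 in P3 KO pools, with 115 and 124 in KO pools and 126 and 128 in wild-type pools. The other Kif6 probe set differed by 0.17 in adults and by 0.86 at P3, with overlapping groups in both. With the mean over probe sets the P3 difference of Kif6 was 0.39, so the opposite direction was lost.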

How the results depend on the processing

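Counts of all kinesins and of each class were recomputed under each alternative; those of ciliary and other kinesins were added after seeing the data. In adult mutant ovaries against wild-type ovaries, a 2-fold minimum left 7 of 15 kinesins and 4 of 8 mitotic motors, and in testes against wild-type ovaries it left 7 of 11 transport motors, since it drops smaller differences by construction. Leaving out single arrays gave 11 to 18 kinesins, 6 to 9 mitotic and 3 to 5 transport motors in mutant against wild-type ovaries (5 without wild-type ovary 2), 27 to 31, 9 to 10 and 8 to 11 in testes against wild-type ovaries, 29 to 33, 10 to 11 and 9 to 12 in mutant ovaries against testes, and 0 in each class at P3. In mutant against wild-type ovaries the ciliary count of 1 (Kif6) was 2 with the filter on dim genes or without the trend (Kif27 added), 0 with the 2-fold minimum and 1 to 3 without single arrays, and the count of 3 other kinesins was 1 in the fit of the 2 groups alone or with the 2-fold minimum and 1 to 3 without single arrays (1 without mutant ovary 1, testis 2 or wild-type ovary 2, where Kif26a and Kif26b were lost). Kif27 passed the filter on dim genes only through the testes, with levels of 3.90 or below in all ovaries. At P3 the filter on dim genes, which tests fewer genes, gave 2 kinesins, Kif26b and the 1 transport motor Kif17. The replicate block, for which the labels state no pairing, gave 1 kinesin at P3 (Kif26b, limma adjusted p = 0.041) against 0 without it. In mutant ovaries it gave 13 against 15, where Kif4 and Kif23 were lost. The cause was not tested. Over all genes, the fit of the 2 ovary groups alone called 1731 against 3232. The P3 count of 59 over all genes was 22 with the mean of probe sets, 188 with the filter, 305 with the block, 0 without the trend and 0 to 22 without one pool, so P3 calls depend on the fit. Of kinesin calls, those kept in all 14 alternatives with a refit were 10 of 15 in mutant against wild-type ovaries, 27 of 30 in testes against wild-type ovaries and 28 of 31 in mutant ovaries against testes. Having 2 wild-type ovaries and 2 pools per P3 group limits the precision, and levels near the array medians may not be above background, for which neither table gives a call.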
